A study of Homo sapiens with 16 samples.

Results

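Histone genes were followed in polyadenylated RNA from SK-N-BE(2)C, a human neuroblastoma cell line, grown with retinoic acid, palbociclib or both. The members were all rows of the count table named as a linker histone (H1- and a number) or as a clustered core histone (H2AC, H2BC, H3C or H4C and a number), or by the older HIST names, of which no row was left. This gave 60 of 27037 genes: 8 H1, 13 H2A, 16 H2B, 11 H3 and 12 H4. There were 16 samples, 4 replicates in each of 4 groups. DMSO was the solvent control, RA received 10 µM retinoic acid, PB received 1 µM palbociclib, and PB+RA received both at those doses. Palbociclib inhibits CDK4 and CDK6, the kinases that drive cells from G1 into S phase, and retinoic acid is a differentiating agent. All groups were of this 1 line, and p-values measure the spread between its replicate samples only.

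Core histones H2A, H2B, H3 and H4 form the nucleosome, and linker histones of the H1 family bind the DNA where it enters and leaves. Most of their genes lie in clusters, lack introns and are transcribed in S phase. Their transcripts end a few bases past a conserved stem-loop, which is bound by the stem-loop binding protein SLBP, and they normally carry no poly(A) tail. The linker H1-10 lies outside the clusters, and its message ends in a poly(A) tail like those of other genes. Some clustered genes also give polyadenylated transcripts, through cleavage at a signal further downstream. Selection on poly(A) is therefore meant to read polyadenylated transcripts, and whether message without a tail was carried over was not tested. The values below are no measure of all histone mRNA.

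A stem-loop is shown for 10 genes on which the results turn. Each line gives the strand of the gene, 5′ to 3′, with the 16 bases of the stem-loop in capitals (a stem of 6 base pairs and a loop of 4 bases) and 5 bases on either side, and the coordinates are those of the 16 bases in GRCh37. The first 5 are of genes whose annotated model runs on past the stem-loop and which were called higher with PB+RA. The other 5 are of genes whose model ends at the stem-loop.
H2AC6 (chr6:26124897-26124912, plus strand): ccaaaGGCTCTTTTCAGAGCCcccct
H2BC4 (chr6:26123700-26123715, minus strand): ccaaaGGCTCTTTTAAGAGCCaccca
H2BC21 (chr1:149857738-149857753, minus strand): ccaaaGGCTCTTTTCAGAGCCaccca
H3C6 (chr6:26225824-26225839, plus strand): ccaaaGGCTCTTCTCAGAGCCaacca
H4C8 (chr6:26285359-26285374, minus strand): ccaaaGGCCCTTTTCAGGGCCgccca
H1-2 (chr6:26055972-26055987, minus strand): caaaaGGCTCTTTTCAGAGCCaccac
H2BC12 (chr6:27114145-27114160, minus strand): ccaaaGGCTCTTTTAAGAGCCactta
H2AC11 (chr6:27101294-27101309, plus strand): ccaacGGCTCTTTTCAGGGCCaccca
H2AC15 (chr6:27805663-27805678, minus strand): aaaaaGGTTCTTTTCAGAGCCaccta
H4C9 (chr6:27107433-27107448, plus strand): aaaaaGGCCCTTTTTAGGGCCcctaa

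Of the 60 members, 58 had a gene model in GENCODE on GRCh37, and H2BC7 and H2BC8 had none. A stem-loop within 120 bases of the stop codon was found in 55 of the 58, with a perfect stem in 53. In H2AC11 and H2AC15 1 position of the stem held T opposite G, which the search for exact complements did not count as a pair. Genes without it included H1-10 (chromosome 3) and the oocyte linker H1-8. The stem-loop began 23 to 63 bases past the stop codon, with a median of 36. The sequence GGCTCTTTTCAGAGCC was the most common and was shared by 31 members, while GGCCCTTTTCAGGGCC was found in 8, all of them H4 genes. H2AC6 and H2BC21, which rose with PB, and H1-2, which was called in no comparison, carried the same 16 bases.

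What did differ between members was where the annotated model ends. In 43 genes the model ended 1 to 11 bases past the stem-loop. In 12 genes it ended over 100 bases past it, by 430 to 37155 bases of genome, introns included: H2AC6, H2BC4, H2BC5, H2BC6, H2BC11, H2BC15, H2BC18, H2BC21, H3C6, H3C10, H4C8 and H4C15. In 11 of these 12, H2BC4 being the exception, the polyadenylation signal AATAAA lay in the last 50 bases of the model. AATAAA within 1000 bases of the stem-loop was found for 28 of the 55 genes. These models may not be those with which the authors counted, and reads past a stem-loop count for a gene only where its model reaches there.

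The members' levels spanned several orders of magnitude. Levels are given as CPM, a gene's share of all counts in its sample scaled to a common total, and between genes per kb of exon. The mean over the 16 samples reached 1 CPM for only 20 of the 60 members and 10 CPM for 8. Per kb, H1-10 was the highest (263 CPM per kb). Others were H2BC12 (153), H2BC5 (14.7), H2AC6 (13.8), H1-2 (12.7), H2BC21 (11.5), H2BC4 (6.53) and H3C6 (5.90). After a filter on low counts (about 0.409 CPM in at least 4 samples), 33 members were tested: 3 of 8 H1, 6 of 13 H2A, 12 of 16 H2B, 6 of 11 H3 and 6 of 12 H4. All 12 genes with an extended model passed, against 17 of the 43 with a model that ends at the stem-loop. Among the 33, 8 (H2BC6, H2BC7, H2BC13, H2BC18, H3C2, H3C4, H3C8 and H4C15) did not reach the filter in all 4 DMSO samples. Of these, H2BC7, H2BC18 and H3C4 were later called higher and H3C8 lower. Of the members called lower with PB+RA, H3C8 and H3C12 reached the filter in 0 of the 4 PB+RA samples, and H2AC17 and H4C9 in 1. A gene that passes only through the groups where it is high is favoured for a call. The counts below therefore describe the tested members and no others. The 27 members not tested reached at most 0.769 CPM, or 15 counts, in any sample, and 9 members had fewer than 20 counts over all 16. Their sum was 3.23 ± 0.0916 CPM in DMSO, 2.67 ± 0.518 with RA, 2.88 ± 0.677 with PB, and 3.16 ± 1.14 with PB+RA (SD, n = 4).

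Samples held between 19.5 M and 31.6 M counts. At these depths a count of 0 allows a level of up to 0.0949 to 0.154 CPM, for counting error only. Replicates 1 and 2 stood apart from replicates 3 and 4 in every group, along the third principal component of all genes (10.8% of the variance), so counts within each of these sets are given as well. The 8 adrenergic neuroblastoma markers were all expressed, with a summed level of 4940 to 9235 CPM per sample. SOX10, a Schwann cell marker, was at a mean of 0.00302 CPM, and the leukocyte marker PTPRC at 0.101.

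The levels of the linkers and the summed levels of the core classes took different courses (no test was made on sums). H1-10 alone stood at 539 ± 22.7 CPM in DMSO, 494 ± 16.6 with RA, 304 ± 42.2 with PB and 254 ± 19.0 with PB+RA (SD, n = 4), so that every sample with palbociclib lay below every sample without it. The 5 linker genes with a stem-loop summed to 9.97 ± 2.02 CPM in DMSO, 9.39 ± 1.34 with RA, 8.91 ± 0.6999 with PB, and 10.96 ± 1.44 with PB+RA, and these groups overlapped.

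**Figure D1:**
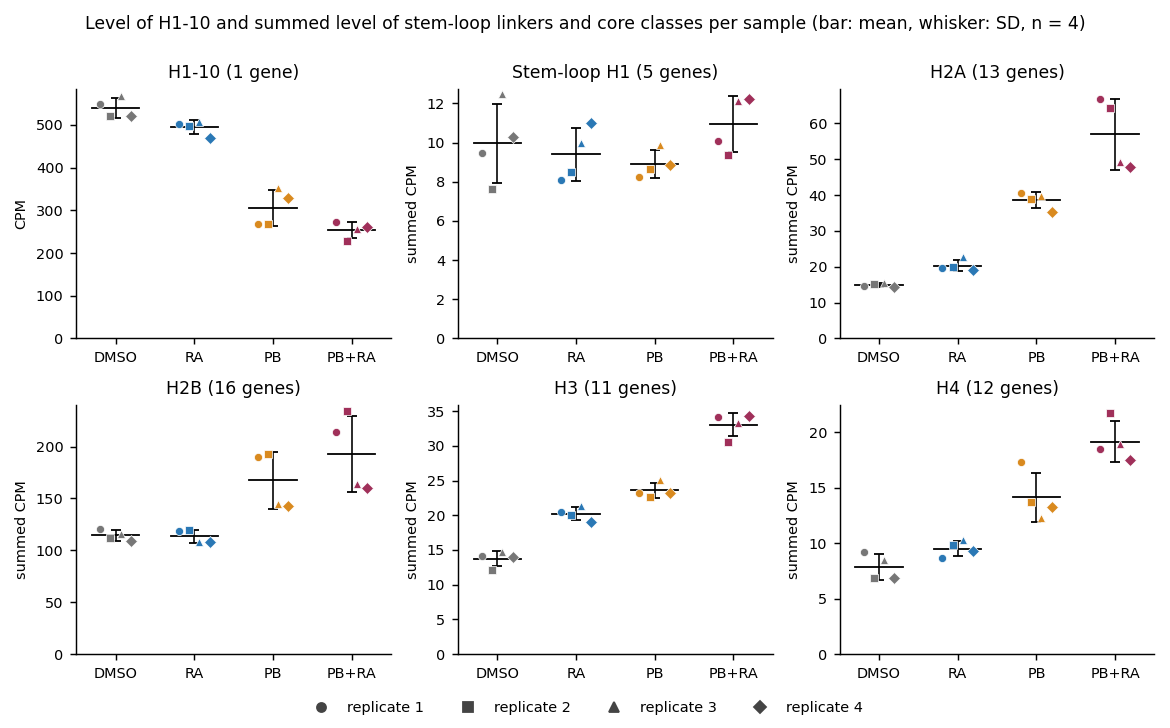
CPM of H1-10 and summed CPM of stem-loop linkers and core classes (linear axes from 0) in each of the 16 samples, by group. Points are samples, with a symbol for each replicate number, bars are means and whiskers SD (n = 4). H1-10 falls from 539 CPM in DMSO to 254 in PB+RA, while H2A rises from 14.9 to 57.0.

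The summed core classes were higher in both groups with palbociclib, for H2A, H3 and H4 in large part through single genes. H2A summed to 14.9 ± 0.555 CPM in DMSO, 20.3 ± 1.63 with RA, 38.6 ± 2.29 with PB, and 57.0 ± 9.96 with PB+RA (SD, n = 4), which is 3.81 times the DMSO mean, and the 4 groups did not overlap. H3 rose in the same order, from 13.7 ± 1.11 through 20.2 ± 0.992 and 23.6 ± 1.09 to 33.1 ± 1.72 CPM. H4 went from 7.85 ± 1.15 through 9.52 ± 0.716 and 14.1 ± 2.19 to 19.2 ± 1.82 CPM, with DMSO and RA overlapping. H2B stood at 114.5 ± 5.11 CPM in DMSO, 113 ± 6.38 with RA, 167 ± 27.5 with PB, and 193 ± 36.9 with PB+RA. The rises of H2A, H3 and H4 leaned on the gene with the highest mean CPM of the class. For every core class, sums without that gene were added after these values had been seen. Without H2AC6, the other 12 H2A genes summed to 7.98 ± 0.981 CPM in DMSO and 11.95 ± 1.63 in PB+RA, 1.497 times DMSO. Without H3C6, the other 10 H3 genes went from 5.98 ± 0.545 to 8.87 ± 0.357 CPM, 1.48 times. Without H4C8, the other 11 H4 genes stood at 5.31 ± 0.842 CPM in DMSO and 5.75 ± 0.393 in PB+RA, and these groups overlapped. H2BC12 weighed the other way, and without it the H2B sum went from 37.1 ± 1.89 to 45.7 ± 2.29, 83.4 ± 14.5 and 119 ± 22.7 CPM. In PB+RA, replicates 1 and 2 lay above replicates 3 and 4 for both H2A and H2B: the 4 H2B sums without H2BC12 ranged from 97.3 to 143 CPM.

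The rise lay mostly in genes with an extended model. The 12 such genes, all of them core histones, summed to 54.9 ± 3.64 CPM in DMSO, 75.7 ± 2.30 with RA, 133 ± 14.98 with PB, and 196 ± 28.0 with PB+RA, which is 3.57 times DMSO. The 38 core genes whose model ends at the stem-loop summed to 94.5 ± 4.95, 84.7 ± 5.74, 104.5 ± 13.8 and 95.6 ± 16.1 CPM, with PB+RA at 1.01 times DMSO. Without H2BC12 the other 37 of these went from 17.2 ± 1.46 in DMSO to 21.3 ± 2.12 CPM in PB+RA (SD, n = 4). Both sums hold members that were not tested.

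The first question was what inhibition of CDK4/6 alone changes. Against DMSO, palbociclib raised 15 of the 33 tested members and lowered 3. The genes that rose were H2AC6, H2AC8, H2AC13, H2AC15, H2BC4, H2BC5, H2BC7, H2BC8, H2BC15, H2BC18, H2BC21, H3C6, H3C10, H4C8 and H4C12, and those that fell were H1-10, H2AC17 and H3C12. A member was called at an adjusted p below 0.05 (edgeR, quasi-likelihood F-test, adjusted after Benjamini and Hochberg over all 15415 tested genes) and an absolute log2 fold change above 0.5. Over all tested genes 16.9% were called higher and 11.3% lower. The median log2 fold change was 0.49 over the 33 members and 0.03 over all tested genes. By class, 4 of 6 tested H2A genes, 7 of 12 H2B, 2 of 6 H3 and 2 of 6 H4 rose, and no linker gene did. Replicates 1 and 2 alone gave 13 higher and 4 lower, and replicates 3 and 4 alone 11 and 2. H2AC13 and H3C10 were not called in replicates 1 and 2. The 11 rises in replicates 3 and 4 were all among the 15. Of the falls only H1-10 recurred there: H2AC17 and H3C12, whose exons overlap on the same strand, were not called, and H2BC11 was added. With the replicate number as a block the counts were 15 and 5, H3C8 being among those added below DMSO (-0.9975, adjusted p = 0.0275), and with a GC and length correction under the same block 15 and 8.

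Retinoic acid alone raised 5 members (H2AC6, H2BC7, H2BC8, H3C6 and H4C8) and lowered 0, where 10.8% of all tested genes were called higher and 2.54% lower. At an unadjusted p below 0.05 edgeR gave 10 higher and 3 lower. DESeq2 also called 0 lower. The median was 0.20 over the members and 0.01 over all tested genes. With the replicate block there were 6 higher, with H2AC15 added (0.66, adjusted p = 0.00963), and 1 lower, H2BC11 (-0.57, adjusted p = 0.0133). The GC and length correction also gave 6 and 1, and it took the calls over all genes from 1661 higher and 392 lower to 1329 and 787. H2BC18 (1.06) was called with RA only when RA replicate 3 was left out (1.34, adjusted p = 0.0380), and H2AC13 (0.41) only without DMSO replicate 2 (0.64, adjusted p = 0.00689). The call of H2BC7 rested on single libraries: its log2 of 1.05 (adjusted p = 0.0441) was no longer called without DMSO replicate 1 (0.75, adjusted p = 0.134), 2 or 4, or without RA replicate 1, 2 or 3. Replicates 1 and 2 alone and replicates 3 and 4 alone each gave 4 higher, and replicates 3 and 4 gave 1 lower, H2BC11.

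Both agents together raised 17 of the 33 members and lowered 8, against 24.0% and 17.9% of all tested genes. The 17 were the 15 genes that rose with PB together with H3C4 and H4C5. Those that fell were H1-10, H2AC11, H2AC17, H2BC11, H3C8, H3C12, H4C3 and H4C9, and 5 of them had not been called with PB. The median was 0.64 over the members and 0.04 over all tested genes. Replicates 1 and 2 alone gave 16 higher and 8 lower, and replicates 3 and 4 alone 15 and 9. H4C3 and H4C5 were not called in replicates 1 and 2, nor H2BC15 and H3C4 in replicates 3 and 4. No member was called in opposite directions in any of the 3 comparisons with DMSO, which share their control samples.

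**Figure D2:**
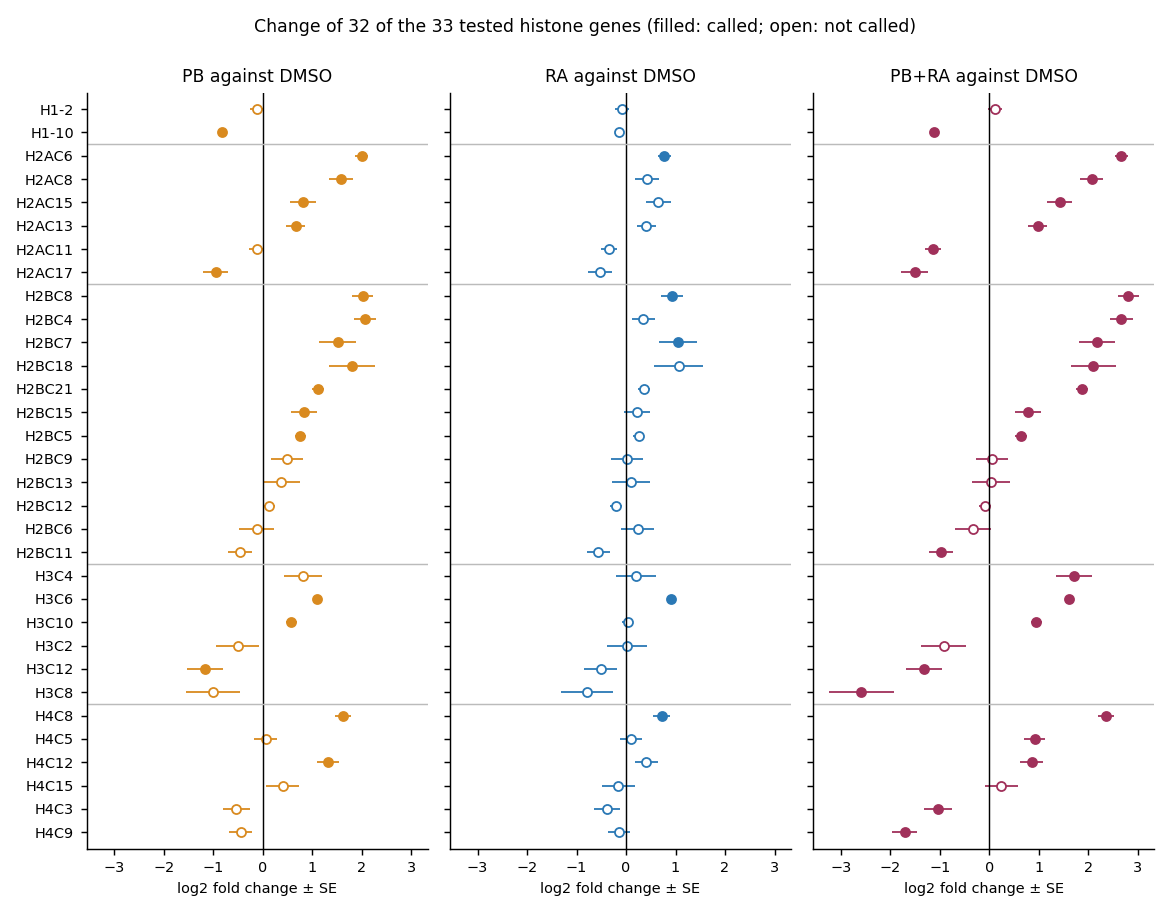
Log2 fold change with its SE (edgeR) for 32 of the 33 tested histone genes, in PB, RA and PB+RA against DMSO, grouped by class. Filled points were called and open points were not. Rises reach 2.81 (H2BC8) and falls -2.59 (H3C8) with PB+RA, and no filled point lies below 0 with RA.

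Of the 12 genes with an extended model, 9 rose with PB, 3 with RA and 9 with PB+RA. H2BC11 was the only one of them called lower, and H2BC6 and H4C15 were called in no comparison. Among the 17 tested genes whose model ends at the stem-loop, PB raised 4 and lowered 2, RA changed 0 (4 had an unadjusted p below 0.05 in edgeR, and H2AC15 was called with the replicate block), and PB+RA raised 6 and lowered 6. Their median log2 with PB+RA was 0.04, against 1.28 for the extended models, which is given as a description since only some members of the former passed the filter. The shares of all tested genes called higher were 16.9% with PB, 10.8% with RA and 24.0% with PB+RA. Called lower were 11.3%, 2.54% and 17.9%.

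**Figure D3:**
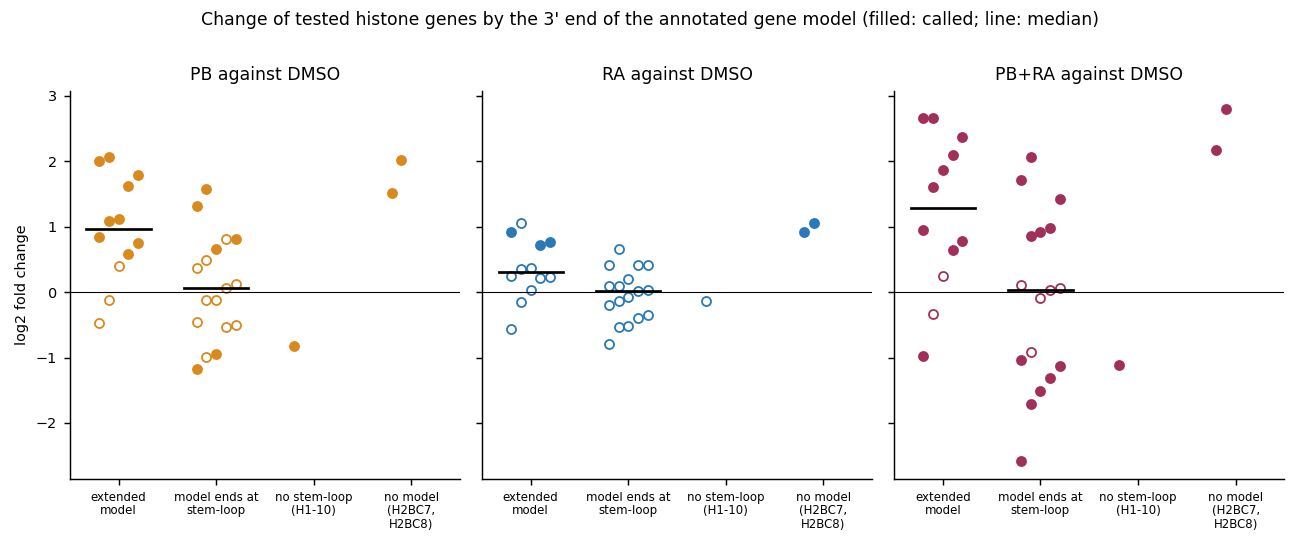
Log2 fold change of 32 of the 33 tested histone genes by the 3′ end of their gene model: extended past the stem-loop, ending at it, without a stem-loop (H1-10), or with no gene model. Each point is a gene, filled where called, and lines are medians of groups with over 2 genes. With PB+RA the 12 extended genes have a median of 1.28 and the 17 that end at the stem-loop 0.04.

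The linker H1-10 was the most abundant member. It stood at 549, 522, 567 and 520.2 CPM in DMSO, 503, 498, 507 and 470.1 with RA, 269, 268, 352 and 328 with PB, and 272, 228, 256 and 262 with PB+RA. All samples with palbociclib lay below all samples without it. Its log2 fold change was -0.82 (SE 0.08, adjusted p = 4.27e-07) with PB and -1.11 (SE 0.08, adjusted p = 5.00e-09) with PB+RA, and RA alone gave -0.13 (adjusted p = 0.218). Between PB+RA and PB it differed by -0.29 (adjusted p = 0.0114), under the fold minimum. H1-10 shares 345 exonic bases with an antisense gene, H1-10-AS1, at 23.8 CPM, and the strand setting of the counts is not given in the sources used here.

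H1-2, the one stem-loop linker that was tested, was called in no comparison. It had 8.97, 6.97, 11.8 and 9.52 CPM in DMSO, 7.74, 8.13, 9.42 and 10.4 with RA, 7.89, 8.46, 9.55 and 8.60 with PB, and 9.62, 9.03, 11.5 and 11.1 with PB+RA, so that all groups overlapped. Its log2 fold change was -0.11 (SE 0.14) with PB, -0.08 (SE 0.14) with RA and 0.11 (SE 0.14) with PB+RA. The other stem-loop linkers and H1-8 were near the floor. H1-3 had 65 counts over all 16 samples, H1-4 98, H1-5 29, the testis linker H1-6 9 and H1-8 2.

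**Figure D4:**
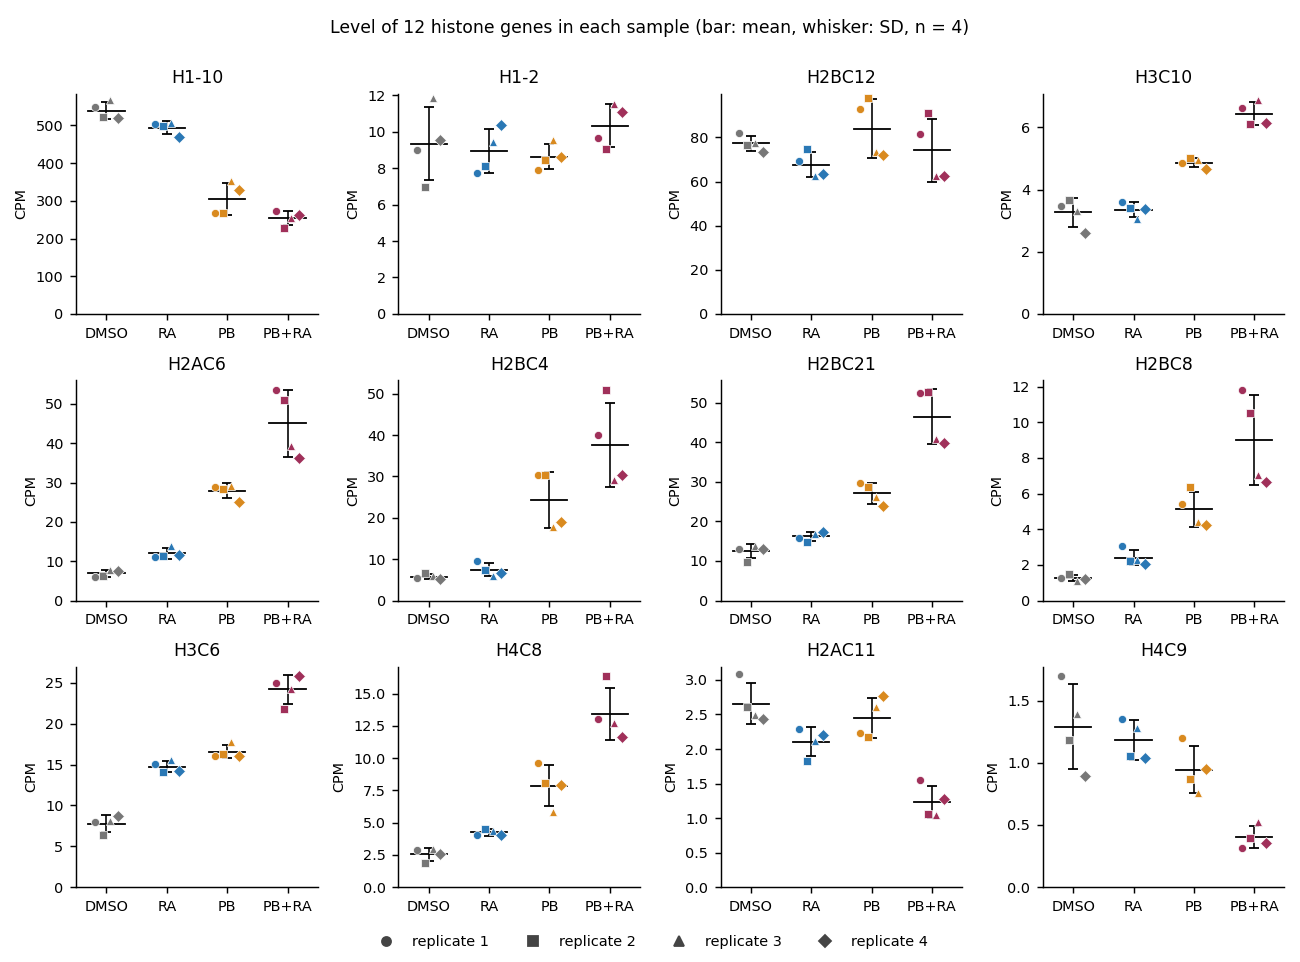
CPM (linear axes from 0, a scale for each gene) of 12 histone genes in each of the 16 samples. Points are samples, with a symbol for each replicate number, bars are means and whiskers SD (n = 4). H1-10 is lower in all samples with palbociclib, H2BC12 overlaps between all groups, H2AC6 to H4C8 are highest in PB+RA, and H2AC11 and H4C9 are lowest there.

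Among H2A genes, H2AC6 was the most abundant in CPM. It had 6.10, 6.28, 7.84 and 7.62 CPM in DMSO, 11.1, 11.4, 13.9 and 11.5 with RA, 28.9, 28.4, 29.2 and 25.1 with PB, and 53.6, 51.0, 39.3 and 36.2 with PB+RA. The 4 groups did not overlap and stood in that order. The log2 fold change was 0.77 (SE 0.13, adjusted p = 0.000337) with RA, 2.00 (SE 0.13, adjusted p = 5.61e-09) with PB and 2.66 (SE 0.13, adjusted p = 4.20e-11) with PB+RA. PB+RA exceeded PB by 0.66 (SE 0.12, adjusted p = 0.000492), although by 0.45 (adjusted p = 0.00113) in replicates 3 and 4 alone, under the fold minimum.

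H2AC8, H2AC13 and H2AC15, whose models end at the stem-loop, were called higher at 1.58 (SE 0.24), 0.66 (SE 0.19) and 0.82 (SE 0.26) with PB, and at 2.07 (SE 0.23), 0.98 (SE 0.18) and 1.42 (SE 0.25) with PB+RA. The call of H2AC15 with PB was lost without PB replicate 1 (0.61, adjusted p = 0.0751). The other tested H2A genes, H2AC11 and H2AC17, fell with PB+RA. H2AC11 had 3.08, 2.61, 2.50 and 2.44 CPM in DMSO, 2.29, 1.82, 2.11 and 2.21 with RA, 2.23, 2.18, 2.61 and 2.76 with PB, and 1.55, 1.06, 1.05 and 1.28 with PB+RA. It was lowest in the 4 PB+RA samples, below every other sample, with a log2 of -1.13 (SE 0.16, adjusted p = 1.14e-05) against DMSO and -1.01 (SE 0.16, adjusted p = 0.000163) against PB. H2AC17 fell with PB (-0.95, SE 0.26) and with PB+RA (-1.51, SE 0.27), and its exons overlap those of H3C12 on the same strand. Its call with PB was lost in replicates 3 and 4 alone. Reads of H2AC13 are hard to place, since 63.5% of its 50-base windows also occur in other genes. For H2AC17 the share was 67.8%, but this takes in the 346 exonic bases that it shares with H3C12 at the same locus.

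The most abundant core gene was H2BC12, with 82.0, 76.7, 77.3 and 73.4 CPM in DMSO, 69.5, 75.0, 62.7 and 63.6 with RA, 92.8, 97.9, 73.2 and 72.2 with PB, and 81.4, 90.9, 62.5 and 62.3 with PB+RA. It was called in no comparison, with a log2 of 0.12 (SE 0.12) for PB and -0.09 (SE 0.12) for PB+RA. In both groups with palbociclib, replicates 1 and 2 lay above replicates 3 and 4. Of its 50-base windows 57.2% occur in other genes.

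H2BC4 had 5.46, 6.73, 5.91 and 5.11 CPM in DMSO, 9.62, 7.48, 5.99 and 6.67 with RA, 30.2, 30.2, 17.9 and 18.9 with PB, and 40.1, 50.9, 29.2 and 30.3 with PB+RA. Both groups with palbociclib lay above both groups without it. The log2 fold change was 2.07 (SE 0.22, adjusted p = 1.43e-06) with PB and 2.67 (SE 0.22, adjusted p = 3.78e-08) with PB+RA. The further rise over PB (0.60, SE 0.21, adjusted p = 0.0305) was lost without PB replicate 3 (0.48, adjusted p = 0.0924) or 4 (0.50, adjusted p = 0.0940), and without PB+RA replicate 1 (0.57, adjusted p = 0.0690) or 2 (0.42, adjusted p = 0.1099). H2BC4 shares exonic bases with genes on the opposite strand.

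H2BC21, on chromosome 1, had 13.1, 9.82, 13.8 and 13.01 CPM in DMSO, 15.9, 14.8, 16.8 and 17.2 with RA, 29.7, 28.7, 26.1 and 23.9 with PB, and 52.4, 52.7, 40.9 and 39.9 with PB+RA. Its groups were ordered as those of H2AC6 and did not overlap. It rose by 1.12 (SE 0.12, adjusted p = 6.95e-07) with PB and by 1.87 (SE 0.12, adjusted p = 5.95e-10) with PB+RA on the log2 scale, and RA alone gave 0.37 (adjusted p = 0.0229), under the fold minimum.

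H2BC8 had 1.24, 1.51, 1.11 and 1.20 CPM in DMSO, 3.03, 2.22, 2.30 and 2.07 with RA, 5.41, 6.38, 4.42 and 4.25 with PB, and 11.8, 10.5, 7.03 and 6.66 with PB+RA. Again the 4 groups did not overlap, with log2 fold changes of 0.92 (SE 0.22) with RA, 2.02 (SE 0.22) with PB and 2.81 (SE 0.21) with PB+RA, the largest rise of any member there. H2BC7 (2.17, SE 0.36) and H2BC18 (2.10, SE 0.45) rose with PB+RA from at most 0.411 and 0.248 CPM in DMSO. H2BC5 gave 0.76 (SE 0.11) with PB, then 0.64 (SE 0.11) with PB+RA, both called. H2BC15 rose by 0.84 (SE 0.26) with PB, a call lost without PB replicate 1 (0.66, adjusted p = 0.0631), and by 0.78 (SE 0.26) with PB+RA, a call lost without PB+RA replicate 1 (0.58, adjusted p = 0.0771) or 2 (0.54, adjusted p = 0.0849). In replicates 3 and 4 alone its change with PB+RA was 0.13 (adjusted p = 0.584). H2BC11 fell by 0.98 on the log2 scale (SE 0.25, adjusted p = 0.00225) with PB+RA. H2BC6, H2BC9, H2BC12 and H2BC13 were called in no comparison.

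Among H3 genes, H3C6 had 7.91, 6.32, 8.13 and 8.67 CPM in DMSO, 15.03, 14.1, 15.5 and 14.2 with RA, 16.1, 16.4, 17.8 and 16.1 with PB, and 24.9, 21.7, 24.2 and 25.9 with PB+RA. PB lay just above RA, and PB+RA above both, without overlap. The log2 fold change was 0.92 (SE 0.09, adjusted p = 2.01e-06) with RA, 1.10 (SE 0.09, adjusted p = 5.40e-08) with PB and 1.61 (SE 0.09, adjusted p = 1.62e-10) with PB+RA. The rise over PB (0.52, adjusted p = 0.000236) was under the fold minimum without PB+RA replicate 1 (0.49).

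H3C10 rose by 0.58 (SE 0.12) with PB, or 0.48 without DMSO replicate 4, and by 0.95 (SE 0.11) with PB+RA. H3C4 rose with PB+RA by 1.71 (SE 0.36, adjusted p = 0.000493), from 0.341 ± 0.0584 to 1.16 ± 0.478 CPM (SD, n = 4), and in replicates 3 and 4 alone by 1.03 (adjusted p = 0.0688). With PB it was called only without PB replicate 4 (1.02, adjusted p = 0.0290). Its call against PB (0.90, adjusted p = 0.0479) was lost without PB replicate 2, 3 or 4 and without PB+RA replicate 1 or 2. The exons of H3C4 overlap those of a readthrough gene on its strand. H3C12 fell by 1.17 (SE 0.37) with PB, a call lost in replicates 3 and 4 alone, and by 1.31 (SE 0.37) with PB+RA. It had 0.771 ± 0.232 CPM in DMSO, 0.342 ± 0.191 with PB and 0.319 ± 0.0557 with PB+RA (SD, n = 4). It shares 346 exonic bases with H2AC17 on its strand. H3C8 had 0.745, 0.326, 0.727 and 0.852 CPM in DMSO and 0.0398, 0, 0.242 and 0.154 in PB+RA, where the count of 0 allows up to 0.133 CPM. Its change with PB+RA was -2.59 (SE 0.66, adjusted p = 0.00245). H3C2 was called in no comparison with all libraries and no block, and with the block fell with PB+RA (-0.92, adjusted p = 0.0486).

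Among H4 genes, H4C8 had 2.84, 1.83, 2.94 and 2.56 CPM in DMSO, 4.05, 4.53, 4.33 and 4.01 with RA, 9.65, 8.08, 5.85 and 7.88 with PB, and 13.04, 16.3, 12.7 and 11.6 with PB+RA. Its 4 groups did not overlap, and the log2 fold change was 0.72 (SE 0.17, adjusted p = 0.00333) with RA, 1.62 (SE 0.16, adjusted p = 4.74e-07) with PB and 2.37 (SE 0.16, adjusted p = 1.94e-09) with PB+RA. H4C8 shares 287 exonic bases with a gene on the opposite strand. H4C12 rose by 1.317 (SE 0.23) with PB and 0.86 (SE 0.23) with PB+RA, but 92.6% of its windows occur in other genes. H4C5 rose with PB+RA by 0.92 (SE 0.22, adjusted p = 0.00126), after 0.06 with PB and 0.10 with RA. In replicates 1 and 2 alone it was not called with PB+RA.

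H4C9 had 1.70, 1.18, 1.39 and 0.890 CPM in DMSO, 1.35, 1.05, 1.28 and 1.04 with RA, 1.20, 0.871, 0.760 and 0.951 with PB, and 0.318, 0.399, 0.525 and 0.359 with PB+RA. The PB+RA samples were below all others, and the other groups overlapped. The log2 fold change was -1.71 (SE 0.25, adjusted p = 1.44e-05) with PB+RA, -0.45 (SE 0.22, adjusted p = 0.103) with PB and -0.14 (SE 0.22, adjusted p = 0.647) with RA. With PB, H4C9 was called lower without DMSO replicate 4 (-0.59, adjusted p = 0.0336) and with the GC and length correction under the block (-0.53, adjusted p = 0.0362). H4C3 fell with PB+RA (-1.03, SE 0.28), and with PB it was called without PB replicate 1 (-0.80, adjusted p = 0.0298) and with the same correction and block (-0.60, adjusted p = 0.0476). H4C15, all of whose windows occur in other genes, was called in no comparison.

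PB+RA was compared with each agent to ask what the second adds. Against PB, 8 members were higher (H2AC6, H2BC4, H2BC8, H2BC21, H3C4, H3C6, H4C5 and H4C8) and 2 lower (H2AC11 and H4C9), where 9.02% of all tested genes were called higher and 7.27% lower. Without PB+RA replicate 1 there were 5 higher, H2BC4, H3C4 and H3C6 being lost. With the replicate block there were 9 higher and 4 lower, the added falls being H2BC11 (-0.52, adjusted p = 0.0431) and H3C8 (-1.59, adjusted p = 0.0247), and the added rise H2AC15 (0.59, adjusted p = 0.00804). Within replicates 1 and 2 there were 7 higher and 1 lower, and within replicates 3 and 4 there were 6 and 1. Lost in the first set were H2AC11 and H4C5, and in the second H2AC6, H3C4 and H4C9. Without PB replicate 4, H4C12 joined the falls (-0.61, adjusted p = 0.0394). H2AC8 joined the rises without PB replicate 1 (0.63, adjusted p = 0.0467) or PB+RA replicate 3 (0.64, adjusted p = 0.0257), and H2AC15 without PB replicate 1 (0.80, adjusted p = 0.0250) or PB+RA replicate 4 (0.75, adjusted p = 0.0274).

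Against RA, 14 members were higher and 6 lower, with 14.9% and 14.1% of all tested genes. The 6 included H1-10, H2AC11, H2AC17, H3C8 and H4C9. Without RA replicate 3 there were 4 lower, H3C8 being among those lost, and H3C8 (-1.80, adjusted p = 0.0442) was also lost without RA replicate 1 or PB+RA replicate 1, 2 or 4. H2BC18 (1.04, adjusted p = 0.0391) was called with all libraries, but not without RA replicate 1, 2 or 3 or PB+RA replicate 2 or 3. H2BC7 (1.12) was not called without PB+RA replicate 2 (0.77, adjusted p = 0.0514), nor H2AC15 (0.77) without PB+RA replicate 1 (0.57, adjusted p = 0.0716). With the replicate block H2BC15 was also higher (0.52, adjusted p = 0.0126), as it was without PB+RA replicate 3 (0.72, adjusted p = 0.0216) or 4 (0.71, adjusted p = 0.0340). Without PB+RA replicate 4, H4C12 was higher (0.58, adjusted p = 0.0462), and without RA replicate 1, H3C2 (-1.22, adjusted p = 0.0181) and H4C3 (-0.76, adjusted p = 0.0424) were lower. Within replicates 1 and 2 there were 12 higher and 4 lower, and within replicates 3 and 4 there were 10 and 7. Lost in the first set were H2AC11, H2AC13, H2AC17, H2BC18 and H4C5, and in the second H2AC15, H2BC7, H2BC18, H3C4 and H3C8.

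The interaction asks whether the change with both agents differs from the sum of the single changes on the log2 scale. By edgeR no member was called (0 higher and 0 lower), while 0.415% of all tested genes were called above additive and 3.02% below. At an unadjusted p below 0.05 there were 3 members above and 5 below, and DESeq2 called 0. For H2AC6 the interaction was -0.11 (SE 0.18), for H2BC4 0.25 (SE 0.31), for H2BC8 -0.14 (SE 0.29) and for H4C8 0.02 (SE 0.23), so that departures from additivity of that size cannot be told from 0 here. With the replicate block 3 members were called below additive: H2AC11 (-0.67, adjusted p = 0.0486), H4C9 (-1.13, adjusted p = 0.0241) and H4C12 (-0.87, adjusted p = 0.0261). After the GC and length correction the calls over all genes were 117 above and 357 below, in place of 64 and 466.

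Many H2A and H2B genes lie head to head and share the DNA between them. By the gene order of RefSeq (GRCh38.p14), 9 pairs of members had starts 193 to 247 bases apart, and both genes were tested in 5. With PB+RA both genes of a pair rose in 3 (H2BC4 and H2AC6, H2BC8 and H2AC8, H2AC15 and H2BC15), and both fell in 1 (H2BC11 and H2AC11). In the fifth, H2AC13 rose and H2BC13 was not called (0.04, SE 0.39). For H2BC4 and H2AC6 the changes were 2.07 and 2.00 with PB and 2.67 and 2.66 with PB+RA.

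The promoter of H2AC6 is shown, since the shared stretch also holds the start of H2BC4. It is the RefSeq sequence of GRCh38.p14, plus strand, from 250 bases before the start of H2AC6 to 50 after it, with capitals for the motifs found by exact search on both strands (the CCAAT box, the TATA box TATAAA and the octamer ATTTGCAT, each also as its reverse complement).
H2AC6 promoter: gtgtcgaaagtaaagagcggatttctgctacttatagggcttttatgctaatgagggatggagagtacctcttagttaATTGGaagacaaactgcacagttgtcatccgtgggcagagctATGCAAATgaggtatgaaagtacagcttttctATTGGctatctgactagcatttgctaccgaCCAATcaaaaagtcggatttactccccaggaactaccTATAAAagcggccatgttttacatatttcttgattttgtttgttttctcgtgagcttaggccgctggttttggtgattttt
The octamer is known from H2B promoters, and CCAAT is a common promoter element. Promoters were found for 54 members. CCAAT was in 83.3% of them, against 34.6% of all 35116 promoters of the same length, TATAAA in 64.8% against 11.5%, and ATTTGCAT in 44.4% against 1.77%. The octamer was in 13 of 16 H2B and 10 of 12 H2A promoters and in 0 of 10 H4 and 0 of 7 H1 promoters. Of 9 H3 entries 1 held it, that of H3C4, whose window is letter for letter that of H2AC7 and so was counted in both classes. The H1 box AAACACA was in 5 of 7 H1 promoters and in 5.64% of all promoters. TTTGGCGC, an E2F motif, was in 0 of the 54, which says only that these letters are not in these windows.

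Most replacement variants are histones made outside S phase from genes with ordinary polyadenylated messages. Of the 10 genes on this list 9 were tested, of which 5 fell with PB, 0 with RA and 6 with PB+RA, and none rose in these 3 comparisons. Over all tested genes 11.3%, 2.54% and 17.9% were called lower. H2AZ1, a variant found at promoters, went from 837 ± 24.4 CPM in DMSO to 449 ± 24.5 in PB and 294 ± 12.4 in PB+RA (SD, n = 4), a log2 of -0.90 (SE 0.05) and -1.54 (SE 0.05). H2AX, the variant phosphorylated at DNA breaks, whose gene also gives a stem-loop message in S phase, changed by -1.24 and -2.07. CENPA, the centromeric H3, fell by 1.39 and 2.68, H2AZ2 by 1.08 and 1.15 and H2AJ by 0.63 and 0.72, while MACROH2A1 was called lower with PB+RA (-0.60). With PB it gave -0.49 (adjusted p = 7.63e-05), just under the fold minimum, and was called by DESeq2 (-0.52) and with the GC and length correction (-0.68). H3-3A and H3-3B both encode H3.3. H3-3B gave -0.49 with PB+RA (adjusted p = 0.00168), again just under the minimum, and was called by DESeq2 (-0.52) and with the correction (-0.68). H3-3A (-0.21 with PB+RA) and MACROH2A2 (-0.05 with PB+RA) were not called. The list's median log2 was -0.63 with PB, -0.03 with RA and -0.72 with PB+RA. H3-5 was not tested.

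Of 18 genes for histone gene transcription and 3′ processing, all tested, 1 rose and 6 fell with PB, 0 changed with RA, and 1 rose and 9 fell with PB+RA. The shares of all tested genes called higher and lower were 16.9% and 11.3% with PB, and 24.0% and 17.9% with PB+RA. SLBP, which binds the stem-loop, had 132 ± 4.71 CPM in DMSO, 108 ± 2.00 with RA, 63.2 ± 4.84 with PB, and 43.6 ± 4.74 with PB+RA (SD, n = 4). Its log2 fold change was -1.06 (SE 0.07, adjusted p = 5.61e-09) with PB and -1.63 (SE 0.07, adjusted p = 1.04e-11) with PB+RA, and RA gave -0.30, under the fold minimum. CASP8AP2, a factor of the histone locus body, changed by -0.94 and -1.31. NPAT, the coactivator of histone genes in S phase, gave -0.19 with PB and -0.34 with PB+RA and was not called. LSM10 and LSM11, of the U7 snRNP that cuts histone transcripts, were not called either, at -0.14 and 0.24 with PB+RA. HINFP, a transcription factor of H4 genes, was higher by 0.54 and 0.53. Both values were under the fold minimum with the GC and length correction (0.38 and 0.30), in replicates 3 and 4 alone (0.44 and 0.37), with a filter on summed counts (0.49 in both) and without DMSO replicate 2 (0.48 and 0.47). The first was also under it without PB replicate 2 (0.48), the second without PB+RA replicate 1 (0.42) or 2 (0.4954). The list's median was -0.25 with PB and -0.44 with PB+RA.

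Among 21 genes of histone chaperones and deposition, PB raised 0 and lowered 9, RA changed 0, and PB+RA raised 1 (CABIN1, 0.55) and lowered 13. Of all tested genes, PB raised 16.9% and lowered 11.3%, and PB+RA raised 24.0% and lowered 17.9%. CABIN1 was under the fold minimum with the GC and length correction (0.27), in replicates 3 and 4 alone (0.4983) and without PB+RA replicate 1 (0.45). The largest falls with PB+RA were those of CHAF1B, a subunit of the replication-coupled chaperone CAF-1 (-2.86, SE 0.17), and ASF1B (-2.16, SE 0.16), which hands H3 and H4 to it. The chaperone HIRA, which places H3.3 outside replication, gave -0.46 and was not called. With RA, where none of these 3 lists held a call by edgeR or DESeq2, an unadjusted p below 0.05 (edgeR) was reached by 1 variant above and 3 below DMSO, by 1 and 8 genes of transcription and processing, and by 1 and 9 chaperones.

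The S phase markers moved with palbociclib as well. The 10 genes summed to 2206 to 2241 CPM in DMSO, 1681 to 1856 in RA, 967 to 1165 in PB and 437 to 581 in PB+RA, with no overlap. PB lowered 9 of 10, RA 2 and PB+RA 9, and the median log2 was -1.37, -0.32 and -2.73. Of all tested genes 11.3%, 2.54% and 17.9% were called lower. CDK2 changed by -2.04 with PB, then -2.93 with PB+RA, CCNE2 by -1.71 and -3.38, and CCNE1 was not called (0.24 with PB, -0.23 with PB+RA). S phase markers were thus lowest in PB+RA, where H2AC6, H3C6 and H4C8 were highest, and highest in DMSO, where those 3 genes were lowest. Other members went the same way as the markers: the means of H1-10, H2AC11 and H4C9 were highest in DMSO and lowest in PB+RA. Of the 33 tested members, 17 were called higher and 8 lower with PB+RA. The part of the S phase markers in the changes of the histone members was not tested. In bulk RNA fewer cells in S phase and less RNA per cell cannot be told apart.

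**Figure D5:**
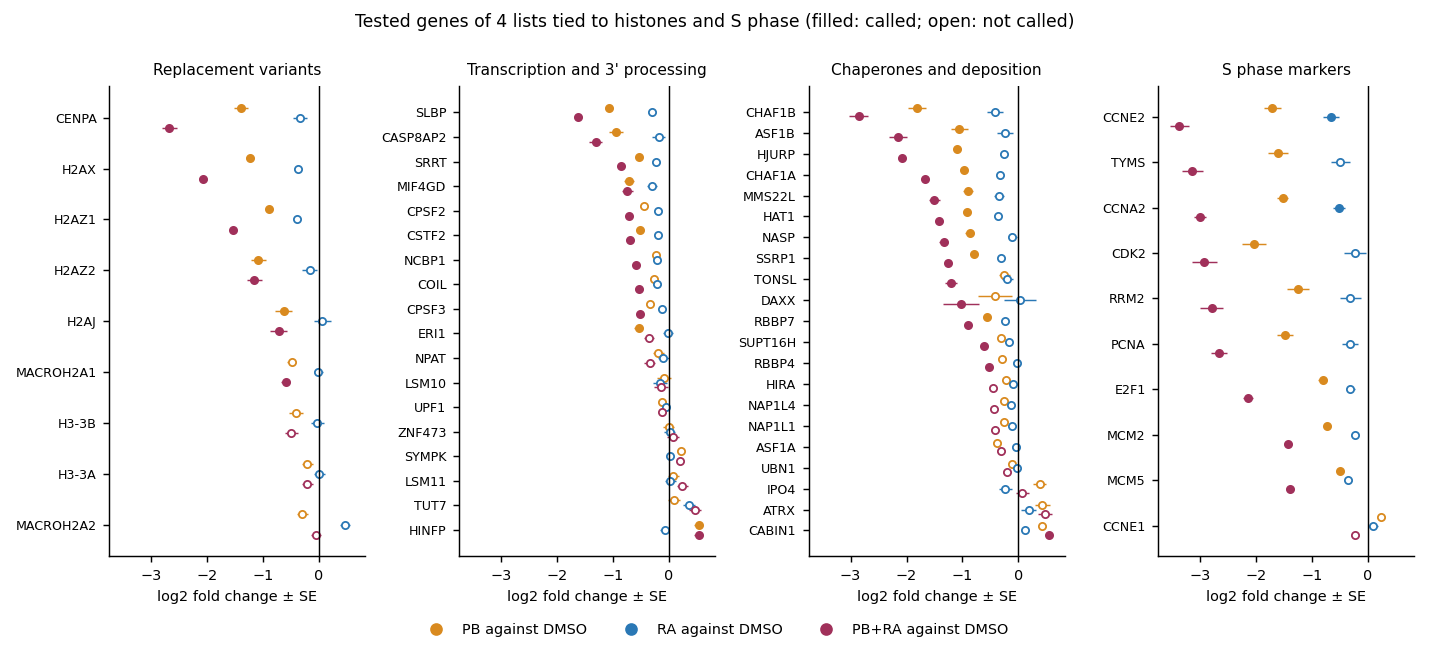
Log2 fold change with its SE (edgeR) for the tested genes of 4 lists: replacement variants (9), histone gene transcription and 3′ processing (18), chaperones and deposition (21) and S phase markers (10). Colours are the 3 comparisons with DMSO, filled points were called. SLBP lies at -1.63 and CENPA at -2.68 with PB+RA, and no gene but HINFP and CABIN1 is called above 0.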

How the data were processed

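RNA-seq was done by the authors on poly(A)-selected RNA with a directional library kit and paired-end reads of 50 bases. Per the labels and their methods, reads were trimmed (Trim Galore 0.6.4), aligned to hg19 with STAR (2.6.1d) and tested with DESeq2 (1.32.0). For STAR the paper's list of software gives another release. The annotation release and the strand setting are not given in the sources used here. The deposited counts per gene are not normalized. The deposited CPM equal each count over its sample total, and CPM here were recomputed from the counts. The authors' table of comparisons (fold changes and p-values) was not used.

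Counts of 27037 genes were filtered with filterByExpr (15415 kept), scaled by TMM and tested with edgeR 4.0.16 (R 4.3.3) over all 4 groups, with Benjamini-Hochberg adjustment over all tested genes. The procedure was tested on simulated data. DESeq2 1.42.0 was an alternative. Same-numbered replicates, whose numbers come from the sample titles, deviated together (24 pairs, r = 0.330 to 0.573). The 72 pairs with different numbers had r from -0.492 to 0.447, which overlaps that range. A fit with the replicate number as a block is given where it changes a call.

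The rule for members reads gene names alone, but it and the lists were chosen with earlier results of these data known. Genes were named by rule: all linkers, the 5 of highest mean CPM in each core class, the 3 largest called rises and falls of each comparison with a mean of at least 1 CPM, all replacement variants and S phase markers, and genes of the other lists called at least once. 1 member is not reported here, although counts include it. Other members were named after their values were seen, to account for each. Gene models are GENCODE on GRCh37, and 14690 tested genes had GC content and length. Totals were 19.5 M to 31.6 M counts.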

Additional observations from a re-analysis of the deposited data

Results flagged for a closer look

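In 156 sets of 4 samples (the tested members and class sums in each group), 3 had a sample far from the others, and chance gives about 1 in 20. These were H2AC6 in RA replicate 3 (13.9 CPM), H3C6 in PB replicate 3 (17.8 CPM) and H4C5 in RA replicate 2 (1.54 CPM).

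No histone member was called in edgeR's interaction test, but 12 genes of the related lists were, all of them below additive. On the log2 scale these were CENPA (-0.95), ASF1B (-0.86), HJURP (-0.73), TONSL (-0.75), CCNE1 (-0.56), CCNE2 (-0.99), CCNA2 (-0.97), PCNA (-0.86), RRM2 (-1.23), MCM5 (-0.55), TYMS (-1.03) and E2F1 (-1.02). Some of these calls rested on single libraries. PCNA was lost without DMSO replicate 1 (-0.80, adjusted p = 0.0601). MCM5 was under the fold minimum without RA replicate 1 (-0.486), PB replicate 3 (-0.497) or PB+RA replicate 2 (-0.491), and CCNE1 without DMSO replicate 3 (-0.481), RA replicate 1 (-0.489) or PB+RA replicate 4 (-0.484). ASF1B was lost without any 1 of the DMSO replicates, RA replicates 1, 3 and 4 or PB replicates 3 and 4 (adjusted p = 0.0517 to 0.0652). TYMS was lost without any 1 of DMSO replicates 1, 3 and 4, RA replicates 1, 3 and 4, PB replicates 3 and 4 or PB+RA replicate 1 (adjusted p = 0.0522 to 0.0640).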

How the results depend on the processing

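No call turned its direction under any alternative. Of 3713 values of single members under alternatives, 3576 kept their side of the threshold, 71 lost a call and 66 gained one. With the replicate block the members lower were 5 with PB, 1 with RA and 4 in PB+RA against PB, and 3 for the interaction, with no other count moved by over 1.5 times and no call of the members named here changed beyond those given with their values above. With the GC and length correction and the block they were 8, 2 and 4, and 3 for the interaction. The correction alone gave 1 lower with RA and took the median of all genes there from 0.01 to -0.09, so that changes with RA stand relative to that shift. Fits of the 2 groups alone, and of replicates 3 and 4, each gave 1 lower with RA. Replicates 3 and 4 gave 1 member above additive, H2BC4 (0.53). Either replicate set gave 1 lower in PB+RA against PB. A minimum of 1 CPM in 4 samples left 1 lower with PB and 4 with PB+RA, fewer members then being tested. A log2 minimum of 1 left 1 lower with PB, 1 higher with RA, 11 higher with PB+RA, 0 higher against PB, and 9 higher and 2 lower against RA. AATAAA lay within 500 bases of the stem-loop in 11 genes and within 2000 in 46.

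Leaving out each library in turn gave 13 to 16 higher and 3 to 4 lower with PB, 4 to 5 and 0 with RA, 16 to 17 and 8 to 9 with PB+RA, 5 to 10 and 2 to 3 against PB, 12 to 16 and 4 to 7 against RA, and 0 for the interaction. Depth limits the low members, 9 of which had fewer than 20 counts over all samples.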
